A study of Mus musculus with 11 samples.

Results

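Nodal, Bmp and Id signalling genes were followed in mouse embryonic stem cells that lack Dicer and in stem cells that lack cMyc. The set holds 10 genes: the ligands Nodal and Bmp4, the ligand inhibitors Lefty1 and Lefty2, the receptor gene Tgfbr2, the intracellular inhibitors Smad7 and Skil, and the targets Id1, Id2 and Id3. They were taken by name, not by their values, as the RefSeq coding rows whose transcript identifier maps to these symbols. All 10 were found, with 1 row each, among 48942 features of the table for the Dicer libraries and among 39889 of the table for the cMyc libraries.

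The cells were feeder-free embryonic stem cells of strain 129S4/SvJae, kept on gelatin, per the labels. Poly(A)-selected RNA was sequenced from 2 libraries of wild-type cells (Dcr WT 1 and 2) and from 3 separate lines without Dicer (Dcr KO lines 1, 3 and 4). A further pair, with 1 library each, set cMyc knockout cells (cMyc KO) against cells that carried the floxed, intact gene (cMyc flox). The series was made to compare long noncoding RNAs and mRNAs between wild-type and Dicer-null cells, and the 4 chromatin libraries among its 11 samples were not analysed here. The labels name no treatment of the cells. They name neither the Cre nor the time since deletion and do not say whether the wild-type libraries came from separate cultures, so p-values measure only the spread between these libraries.

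Nodal is a Tgf-beta family ligand that signals through activin receptors and Smad2 and Smad3, and it induces its own inhibitors, the Lefty proteins. Bmp4 signals through Bmp receptors and Smad1, Smad5 and Smad9, and induces the Id genes, whose products bind E proteins and keep them from DNA. In mouse stem cells Bmp4 and the Id genes are known for holding back neural differentiation, and Nodal signalling for readiness to form mesoderm and endoderm. Dicer cuts microRNA precursors, and the most abundant microRNAs of these cells belong to the miR-290 and miR-302 families.

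Mature sequences from RefSeq (GRCm38.p6) are shown for the family members that share a seed, since Dicer is needed to make them and Lefty genes and Tgfbr2 are known targets of related microRNAs. Capitals mark the seed, bases 2 to 8, which was AAGUGCU in these 5:
mmu-miR-291a-3p: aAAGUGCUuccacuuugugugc
mmu-miR-294-3p: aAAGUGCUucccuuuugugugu
mmu-miR-295-3p: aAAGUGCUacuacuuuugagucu
mmu-miR-302b-3p: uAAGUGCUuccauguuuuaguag
mmu-miR-302d-3p: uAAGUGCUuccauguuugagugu
Neither the microRNAs nor target sites in the 10 genes were measured here.

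Values are normalised read counts: reads per feature divided by 1 factor per library, as deposited. They grow with transcript length, so levels were compared between libraries and not between genes. The Dcr libraries held 101815723 to 278006158 reads, the lowest in Dcr WT 1. The cMyc libraries held 24660365 (cMyc flox) and 31633011 (cMyc KO). Of these, 28.1% and 30% were counted on rRNA features, against 0% in the Dcr libraries, which left 15364985 and 19269607 reads on coding features. Dicer1 fell from 20131 and 18792 in Dcr WT to 8553, 9793 and 7743 in Dcr KO (log2 fold change −1.17, limma adjusted p = 0.000556), but which part of the gene was deleted, and so what this row checks, is not known from the labels. Myc stood at 470 in cMyc flox and 10.9 in cMyc KO, a 43.2-fold lower value. It was also 10.07-fold lower in Dcr KO than in Dcr WT. All 6 stem cell markers, among them Pou5f1, Sox2 and Nanog, were present in every library and 0 of 6 passed the test in Dcr KO. Fibroblast markers were present in wild-type cells and fell in Dcr KO, 6 of 6 tested, from summed values of 11650 and 22608 to between 1638 and 2135. Of these 6 calls, 2 were lost without some library, and 22.9% of coding RefSeq features were called lower. In bulk RNA, fewer cells of a type and less RNA per cell cannot be told apart.

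In Dcr KO, Lefty1, Tgfbr2 and Id2 rose, and Nodal, Bmp4, Smad7 and Id3 fell; Lefty2, Skil and Id1 did not pass the test. A gene passed when limma on log2(value + 1), fitted over 42358 features, gave a Benjamini-Hochberg adjusted p under 0.05. By this rule 3 members were higher and 4 lower out of 10, where 20.9% of 16322 coding RefSeq features were higher and 22.9% lower (43.8% either way). Over all features tested these shares were 16.9% and 14.8% (31.7% either way). The members' median log2 fold change was 0.20, against −0.06 for coding RefSeq features. The 4 largest changes, those of Bmp4, Tgfbr2, Id2 and Lefty1, passed without any 1 of the 5 libraries, while the calls of Nodal, Smad7 and Id3 were lost without some library. Dcr WT 1, the shallowest of the 5, also carries another suffix in its column name than the other 4; no label tells whether it marks a batch. Without it all libraries share the suffix, and Lefty1, Bmp4, Tgfbr2 and Id2 passed while Nodal, Smad7 and Id3 did not.

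**Figure D1:**
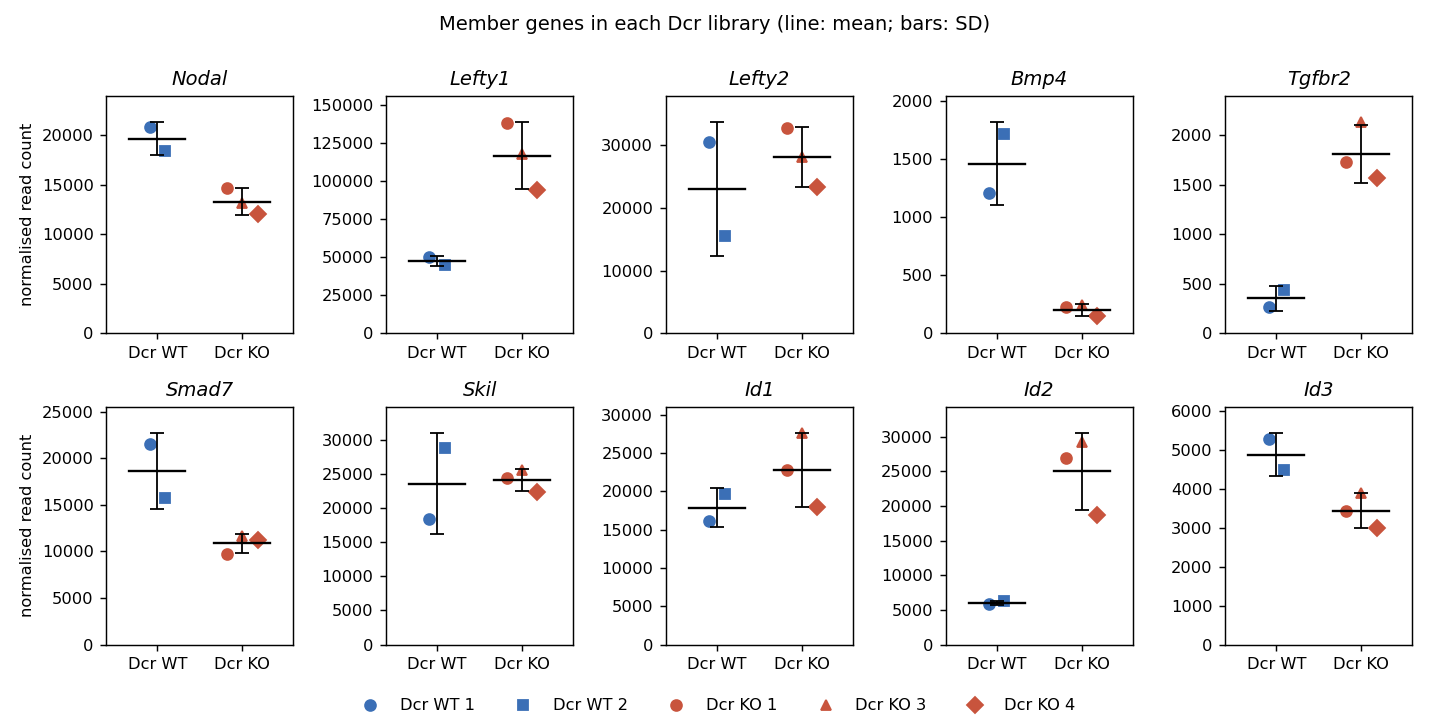
Normalised read count (y axis, from 0, a scale of its own for each gene) of the 10 genes in 2 Dcr WT and 3 Dcr KO libraries; points are libraries, lines means and bars the SD. Dcr KO lies wholly above Dcr WT for Lefty1, Tgfbr2 and Id2, wholly below it for Nodal, Bmp4, Smad7 and Id3, and overlaps it for Lefty2, Skil and Id1.

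Among the ligands, Nodal fell modestly and Bmp4 fell strongly. Nodal stood at 20866 and 18475 in Dcr WT 1 and 2 and at 14710, 13169 and 12037 in the knockout lines (always in the order 1, 3, 4). The groups did not overlap, as was also the case for 66.9% of coding RefSeq features (31.3% with Dcr KO above, 35.5% with Dcr KO below), and for 7 of the 10 genes. Its mean fell 1.48-fold, from 19670 ± 1691 (SD, n = 2) to 13305 ± 1342 (SD, n = 3), and the log2 fold change was −0.57 ± 0.15 (SE) at a limma adjusted p of 0.0171. The call was lost without Dcr KO line 3 (limma adjusted p = 0.0825), without line 4 (0.0615) or without Dcr WT 1 (0.0858), with log2 fold changes of −0.56, −0.50 and −0.48.

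Bmp4 had values of 1211 and 1717 in wild-type cells, and the knockout lines held 224.5, 239.8 and 145.4. The groups lay far apart. The mean fell 7.20-fold, from 1464 ± 358 (SD, n = 2) to 203.2 ± 50.7 (SD, n = 3), the largest change of the 10 genes (log2 fold change −2.85 ± 0.28, SE; limma adjusted p = 0.000139). Leaving out single libraries, other scalings and other tools gave log2 fold changes of −3.11 to −2.60. Fibroblast markers also fell in Dcr KO. Their summed value, like Bmp4, was higher in Dcr WT 2 than in Dcr WT 1, whereas among single markers Pdgfrb was lower there (1008 and 769.6) and Thy1 nearly equal (3249 and 3306). Their part in the fall of Bmp4 was not tested.

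The Bmp4 promoter is shown because the gene changed most among the 10 and because Myc, which binds the sequence CACGTG with its partner Max, fell in the same lines. The 250 bases before its RefSeq start (GRCm38.p6, chr14:46390670-46390919, minus strand) hold 1 copy of CACGTG, in capitals, 188 to 183 bases before the start:
Bmp4: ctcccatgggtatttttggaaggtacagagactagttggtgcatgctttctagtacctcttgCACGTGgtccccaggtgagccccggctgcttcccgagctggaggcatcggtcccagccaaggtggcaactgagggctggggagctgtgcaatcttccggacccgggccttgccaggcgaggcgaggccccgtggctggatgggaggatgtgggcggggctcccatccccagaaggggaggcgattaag
Of 32851 such promoters in the table, 6.02% hold CACGTG. A match describes these letters only. In the cMyc pair, with 1 library each, Bmp4 stood at 164.4 in cMyc flox and 174.9 in cMyc KO. Its ratio of 1.06 had a counting interval that holds 1. Whether Myc has a part in the fall of Bmp4 was not tested.

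Of Lefty1 and Lefty2, secreted proteins that block Nodal, only Lefty1 was called, and no test compared their changes. Lefty1 stood at 49845 and 44921 in Dcr WT and at 138035, 117916 and 93898 in the knockout lines, all of them above the wild-type values. Its mean rose 2.46-fold, from 47383 ± 3482 (SD, n = 2) to 116616 ± 22097 (SD, n = 3), and the log2 fold change was 1.28 ± 0.18 (SE) at a limma adjusted p of 0.000804. Lefty2 stood at 30572 and 15455 in Dcr WT and at 32820, 28179 and 23387 in Dcr KO, so that the groups overlapped. The 1.98-fold gap between its wild-type libraries was the widest of the 10 genes, and the log2 fold change of 0.36 had an interval of −0.23 to 0.95 (limma adjusted p = 0.324). Without Dcr WT 2 it was −0.13. The genes are neighbouring copies of similar sequence, and no label or header tells how reads matching both were counted, which leaves the split between them uncertain.

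A ratio of reads within 1 library does not depend on the scaling between libraries, and 8 such ratios were formed after the values had been seen. Lefty1 over Lefty2 was 1.63 and 2.91 in Dcr WT 1 and 2 and 4.21, 4.18 and 4.01 in the knockout lines. The wild-type libraries differed from each other more than the knockout lines did. Lefty1 over Nodal, the inhibitor relative to the ligand, was 2.39 and 2.43 in Dcr WT and 9.38, 8.95 and 7.80 in Dcr KO, a mean shift of 3.60-fold. Lefty2 over Nodal was 1.47 and 0.837 in Dcr WT and 2.23, 2.14 and 1.94 in Dcr KO. For each of the 8 ratios the groups did not overlap. The exact permutation test (two-sided) gave p = 0.1 for each, the smallest that 2 against 3 libraries allow (0.1 after Benjamini-Hochberg adjustment over the 8 ratios). Because the pairs were picked on seen values, neither the separation nor this p-value tests a difference, and the ratios only describe the libraries.

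**Figure D2:**
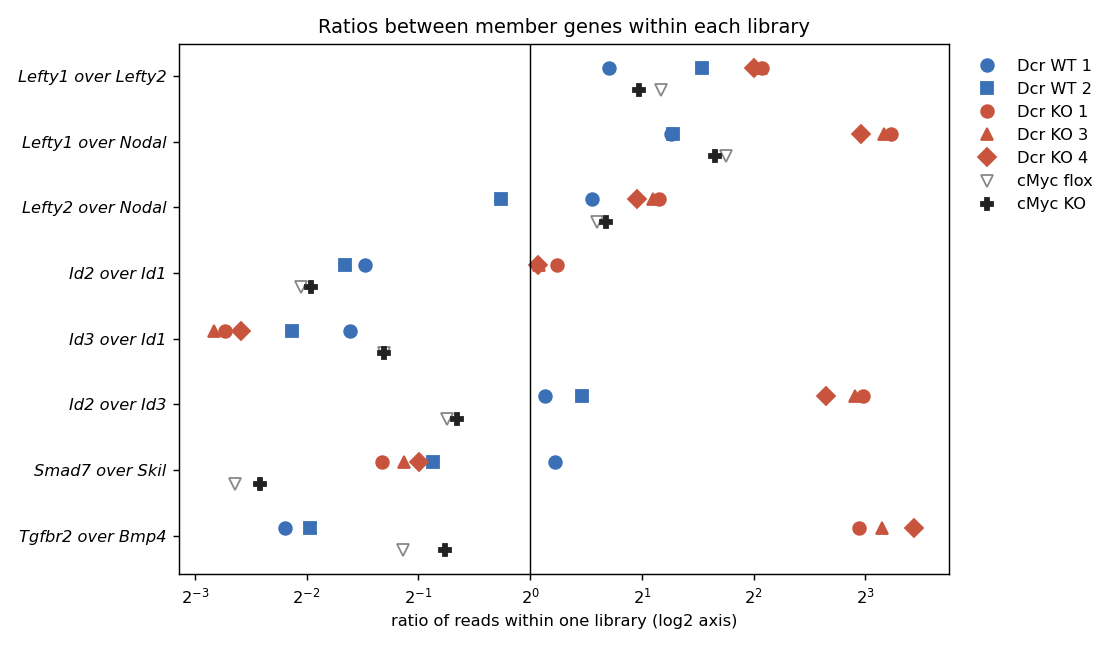
Ratios of reads between pairs of the genes within each library (x axis, log2 scale) for 2 Dcr WT, 3 Dcr KO and the 2 cMyc libraries; each point is 1 library. Lefty1 over Nodal lies at 2.39 and 2.43 in Dcr WT and from 7.80 to 9.38 in Dcr KO, and the 2 cMyc libraries lie close to each other in each row.

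Tgfbr2, the type II receptor that binds Tgf-beta, rose 5.13-fold. It stood at 265.5 and 439.1 in Dcr WT and at 1728, 2133 and 1565 in Dcr KO. All 3 lines lay above the higher wild-type value, by over 3-fold. The means were 352.3 ± 122.7 (SD, n = 2) and 1809 ± 293 (SD, n = 3), with a log2 difference of 2.39 ± 0.25 (SE; limma adjusted p = 0.000187) and a range of 2.03 to 2.75 over the alternatives. The reads for Tgfbr2 over those for Bmp4 went from 0.219 and 0.256 in Dcr WT to 7.70, 8.89 and 10.8 in Dcr KO. Its promoter is shown as that of the member that rose most. The 250 bases before the start (GRCm38.p6, chr9:116175364-116175613, minus strand) hold 1 copy of CAGAC, the short Smad-binding sequence, in capitals:
Tgfbr2: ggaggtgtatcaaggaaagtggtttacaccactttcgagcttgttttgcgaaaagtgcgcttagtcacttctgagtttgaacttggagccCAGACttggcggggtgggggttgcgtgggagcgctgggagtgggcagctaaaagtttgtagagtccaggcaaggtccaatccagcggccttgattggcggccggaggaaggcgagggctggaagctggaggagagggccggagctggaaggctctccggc
CAGAC, read on either strand, occurs in 42.2% of promoters in the table, a common match.

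Of the intracellular inhibitors, Smad7 was called lower and Skil was not called, and no test compared their changes. Smad7, which blocks receptors of the family and is induced by their signal, stood at 21483 and 15739 in Dcr WT and at 9753, 11686 and 11196 in Dcr KO. The groups did not overlap, and the mean fell 1.71-fold, from 18611 ± 4062 (SD, n = 2) to 10878 ± 1005 (SD, n = 3; log2 fold change −0.76 ± 0.17, SE; limma adjusted p = 0.0087). The call was lost without Dcr KO line 1 (log2 fold change −0.68, limma adjusted p = 0.0538) or Dcr WT 1 (−0.54, 0.0626). Skil, which encodes the Smad corepressor SnoN, stood at 18357 and 28801 in Dcr WT and at 24451, 25515 and 22364 in Dcr KO. The knockout lines lay between the wild-type libraries, and the log2 fold change of 0.07 had an interval of −0.36 to 0.49 (limma adjusted p = 0.815). Smad7 over Skil was 1.17 and 0.546 in Dcr WT and 0.399, 0.458 and 0.501 in Dcr KO, so that Dcr WT 2 lay near the knockout lines.

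The 3 Id genes, which encode partners that hold E proteins off DNA, went different ways. Id2 stood at 5788 and 6214 in Dcr WT and at 26917, 29271 and 18745 in Dcr KO. All 3 lines were over 3-fold above both wild-type libraries, which were close to each other. Its mean rose 4.16-fold, from 6001 ± 301 (SD, n = 2) to 24978 ± 5525 (SD, n = 3), which is 2.03 ± 0.19 on the log2 scale (SE; limma adjusted p = 0.000126), with a range of 1.90 to 2.23 over the alternatives. Id1 stood at 16084 and 19628 in Dcr WT and at 22720, 27564 and 17928 in Dcr KO. Line 4 lay between the wild-type libraries, and the log2 fold change of 0.33 had an interval of −0.10 to 0.76 (limma adjusted p = 0.21). Id3 stood at 5259 and 4487 in Dcr WT and at 3419, 3895 and 2986 in Dcr KO, without overlap.

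The fall of Id3 was 1.42-fold, or −0.51 ± 0.17 on the log2 scale (SE; limma adjusted p = 0.0445). Its call was lost without any 1 of the 5 libraries (limma adjusted p from 0.0707 to 0.18) and with upper quartile scaling (0.0634). The ratio of Id2 to Id1 reads was 0.360 and 0.317 in Dcr WT and 1.18, 1.06 and 1.05 in Dcr KO, and that of Id2 to Id3 rose from 1.10 and 1.38 to 7.87, 7.51 and 6.28. Id3 over Id1 went from 0.327 and 0.229 to 0.151, 0.141 and 0.167. Within every knockout library, Id2 had thus gained on both other Id genes and Id3 had lost ground to Id1.

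The promoter of Id2 is shown because Id2 alone of the 3 Id genes was called higher. Its 250 bases before the start (GRCm38.p6, chr12:25096093-25096342, minus strand) hold 1 copy of GGCGCC, a sequence that Smad1 and Smad5 can bind, in capitals:
Id2: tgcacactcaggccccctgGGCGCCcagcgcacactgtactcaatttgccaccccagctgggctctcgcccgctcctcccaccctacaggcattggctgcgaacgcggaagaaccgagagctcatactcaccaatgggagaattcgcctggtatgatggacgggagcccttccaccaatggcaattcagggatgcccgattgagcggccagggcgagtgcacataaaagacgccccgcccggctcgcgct
GGCGCC occurs in 9.59% of promoters in the table. Of the 10 genes, 5 had a promoter there (Nodal, Bmp4, Tgfbr2, Id2 and Id3). These were searched on both strands for the 3 short sequences named so far. The longer palindromic Smad sequence GTCTAGAC, in 0.167% of promoters, was searched as well. So was AATCCACA, a Foxh1 sequence found in 0.718% of promoters. Its variant AATACACA was found in 0.895%. No sequence searched contains another. The Id3 promoter held CAGAC in 2 places, and that of Nodal held none of the 6.

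**Figure D3:**
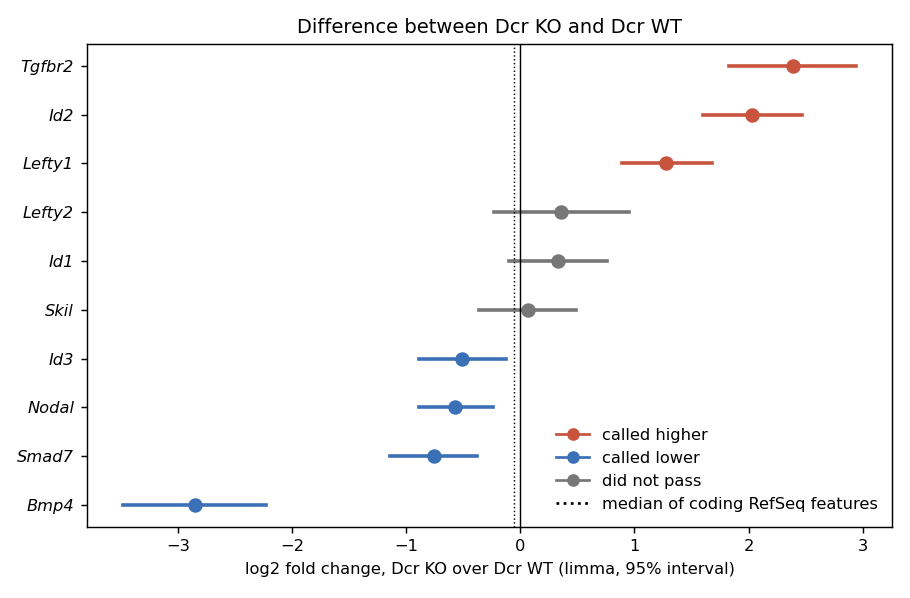
Log2 fold change of each gene, Dcr KO over Dcr WT (points), with its 95% interval from limma (lines); red and blue mark genes called higher and lower, grey those that did not pass, and the dotted line the median of coding RefSeq features at −0.06. The estimates run from −2.85 for Bmp4 to 2.39 for Tgfbr2, and the intervals of Lefty2, Id1 and Skil span 0.

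The knockout lines did not stand at the same level for these genes. Line 4 was the lowest of the 3 lines for 9 of the 10 genes, all but Smad7, and for 52.1% of coding RefSeq features. Line 3 was the highest for Bmp4, Tgfbr2, Smad7, Skil and the 3 Id genes, and line 1 for Nodal, Lefty1 and Lefty2. The highest line exceeded the lowest by 1.14-fold for Skil and up to 1.65-fold for Bmp4. The median range over the lines was 0.47 on the log2 scale for the 10 genes and 0.31 for coding RefSeq features.

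For each member, the coding genes with the nearest course over the 5 Dcr libraries were listed. Likeness was taken as the root mean square difference of centred log2(value + 1) values, among coding genes with a mean of at least 100. Nodal was nearest to Mrpl44 (0.012) and Cep72 (0.023), and Bmp4 to Svop (0.079) and Alox5 (0.093). Lefty1 was nearest to Pcolce2 (0.077) and Tyw3 (0.080), Lefty2 to Bcl3 (0.023) and Lhpp (0.046), and Tgfbr2 to Sspo (0.085) and Meis1 (0.088). Smad7 was nearest to Ypel3 (0.050) and Aloxe3 (0.055), and Skil to Zfp943 (0.026) and Rps27 (0.041). Id1 lay nearest to Enpp3 (0.053) and Slc20a1 (0.065), Id2 to Cdkl1 (0.054) and Mslnl (0.091), and Id3 to Hcn3 (0.052) and Cbx7 (0.052). None of these nearest genes was another member, which says little, since members are few among the genes searched. The members' own SD on this log2 scale ran from 0.217 (Skil) to 1.429 (Bmp4). The nearest genes were picked from all such coding genes on only 5 values each, so close matches can arise for any gene. No distance for a typical gene was computed, so these distances do not show a shared course beyond what the search itself gives.

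The other genes of the pathway were taken as 78 genes in 9 lists by role. Of the 75 that could be tested, 22 were called higher and 14 lower, with a median log2 fold change of 0.07. The 36 calls together lie near the background share of 43.8% among coding RefSeq features, of which 20.9% were higher and 22.9% lower. Higher calls outnumbered lower ones here but not in that background. The counts, also those of the single lists, describe the genes and set no list apart. Of these 36 calls, 20 were lost without some library. Among ligands, Nodal-type and Tgf-beta ligands were split, with 2 higher and 2 lower of 8. Gdf1 (log2 fold change −1.62), a Nodal partner, and Tgfb1 (−1.51) fell, and Inhbb (0.97), an activin subunit, and Gdf3 (0.93) rose. Of the Bmp list 5 fell and 0 rose among 7 tested. Bmp6 fell from 641.7 and 592.5 in Dcr WT to 92.3, 104.6 and 45.2 in Dcr KO (−3.01, limma adjusted p = 0.000459), and Bmp7 (−1.31), Gdf9 (−1.37), Gdf6 (−3.13) and Bmp1 (−1.08) fell as well. Gdf6 stood at 30.2 and 37.4 against 0, 6.11 and 7.65, so its fitted change depends on the pseudocount (−1.62 with 10). Bmp1 is a protease, not a ligand of the family, despite its name.

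Receptors and Smads that passed were mostly called higher, where 20.9% of coding RefSeq features were higher and 22.9% lower. Of 10 receptor genes 4 rose, namely Bmpr2 (0.95), Tgfbr1 (0.77), the partner of Tgfbr2, Acvr2a (0.48) and Bmpr1a (0.40). Acvrl1, a receptor best known in endothelium, fell (−2.75), from 424.5 and 356 to 46.1, 65.7 and 60.5. Smad9 (1.08), Smad3 (0.82) and Smad2 (0.41) rose, and 0 of 8 Smads and partners were called lower. Smad4 did not pass (−0.32, limma adjusted p = 0.0983), though its groups did not overlap. It stood at 24213 and 21232 in Dcr WT and at 18723, 18371 and 17413 in Dcr KO. The calls of Acvr2a, Bmpr1a, Smad2 and Smad9 were lost when any Dcr KO line was left out. Smad3 stood at 7675 and 7906 in Dcr WT and at 13505, 14069 and 13735 in Dcr KO, tight within both groups. The Nodal coreceptor gene Tdgf1 fell (−0.86), whereas Cfc1, its paralog, rose (1.44) beside the bone morphogenetic protein coreceptor gene Rgmb (0.52) and the convertase gene Furin (0.46).

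Of 12 genes for inhibitors outside the cell, 3 were called lower and 1 higher, where 22.9% of coding RefSeq features were lower. Noggin, encoded by Nog, which binds Bmp ligands, fell from 126.7 and 273 to 19.5, 39.0 and 21.4 (−2.83, limma adjusted p = 0.00235). Grem1, another Bmp antagonist (−2.53, and −1.45 with a pseudocount of 10), and Fstl3, which binds activin (−1.39), also fell, and Fstl1 rose (1.20) from 37881 and 33116 to 85381, 77637 and 81102. Inside the cell, Smad6, the inhibitory Smad that prefers Bmp receptors, rose from 2579 and 2059 to 4522, 6094 and 4667 (1.13, limma adjusted p = 0.00194). It thus differed in direction from Smad7. Pmepa1 rose too (1.09), and 0 of 8 were called lower.

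Of 12 further targets 5 rose and 2 fell, where 20.9% of coding RefSeq features were higher and 22.9% lower. Of these 7 calls, 5 were lost without some library. Msx2, a Bmp target, rose from 368.1 and 320.4 to 1211, 1146 and 936.7 (1.67, limma adjusted p = 0.000422), and Gsc (1.36) and Ccn2 (0.89) were among the others that rose. The mesoderm gene T (−5.26, and −3.80 with a pseudocount of 10) and Dlx3 (−2.39) fell. Id4, the remaining Id gene, did not pass (0.54, limma adjusted p = 0.0949), at 631.7 and 676.4 in Dcr WT and 740, 987.6 and 1175 in Dcr KO. Of the E protein genes whose products Id proteins bind, Tcf12 rose from 12457 and 11143 to 26015, 32713 and 27795 (1.28), Tcf4 rose (0.92) and Tcf3 did not pass (0.03, limma adjusted p = 0.914).

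Calls lost without some library included those of Gdf3, Inhbb, Bmp1, Gdf6, Gdf9, Tdgf1, Furin, Rgmb, Acvr2a, Bmpr1a, Smad2, Smad9, Grem1, Pmepa1, Gsc, T, Ccn2 and Tcf4. Leaving out Dcr WT 1 or else Dcr WT 2 gave log2 fold changes of 2.07 and 0.66 for Gsc, −4.28 and −6.23 for T, and −3.11 and −1.94 for Grem1. Without Dcr KO line 1 it was −2.14 for Gdf6 and −5.94 for T. Markers of other cell types were called in both directions, and their part was not tested. Among coding RefSeq features 20.9% were called higher and 22.9% lower. Calls lost without some library were 3 of 4 for streak, 2 of 3 for primitive endoderm and 2 of 4 for trophoblast markers. Streak markers rose in 1 and fell in 3 of 6 cases, and share T, Gsc and Eomes with the target list. Their summed values were 3440 and 2293 in Dcr WT and 1325 to 2006 in Dcr KO. Primitive endoderm markers fell in 3 of 7 cases, with sums of 6321 and 3338 against 2830 to 3779, and trophoblast markers rose in 3 and fell in 1 of 5, with sums of 28142 and 20995 against 38507 to 47832. The fibroblast marker Postn was at 0 in every Dcr library but Dcr WT 2 and was not tested.

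**Figure D4:**
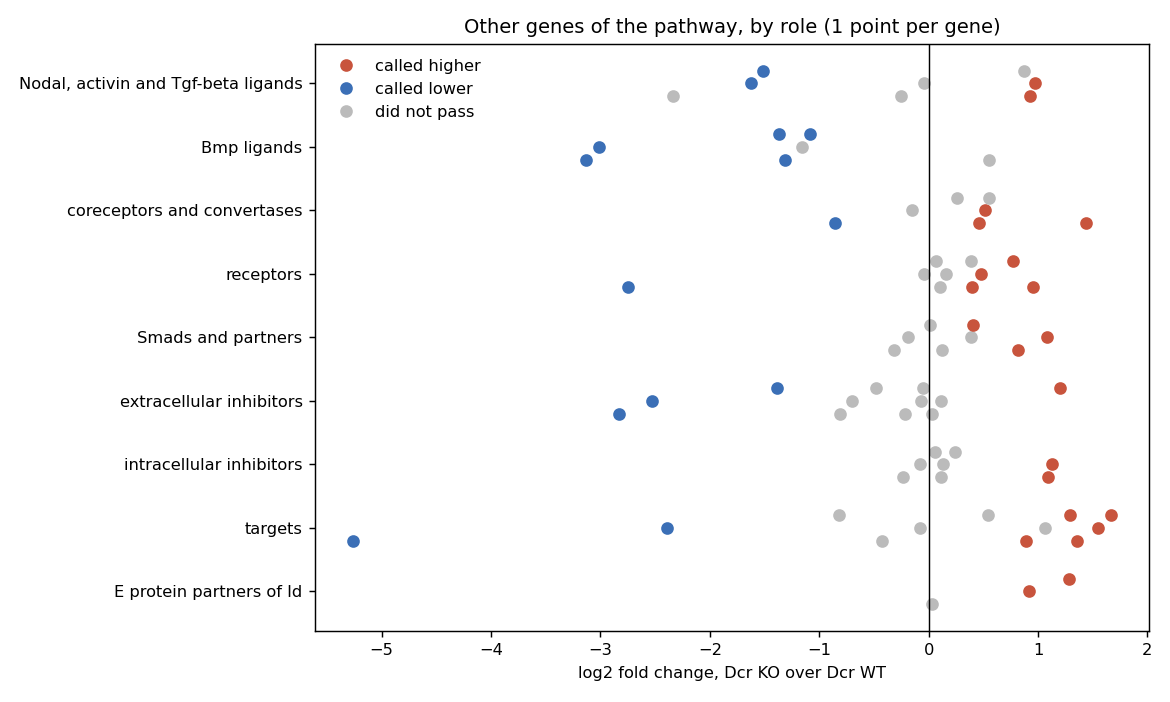
Log2 fold change, Dcr KO over Dcr WT (x axis), of 75 further genes of the pathway in 9 lists by role; each point is 1 gene, with red called higher, blue called lower and grey not passing. The Bmp list holds 5 genes called lower and 0 called higher, and the receptor list 4 higher and 1 lower.

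In the cMyc pair the ratios of the 10 genes, cMyc KO over cMyc flox, ran from 0.904 to 1.51 and lay mostly above 1. With 1 library each there is no replicate check and no test, and a value counted as past the mark when the ratio was at least 1.5-fold with a 95% counting interval (exact Clopper-Pearson on recovered reads, counting error only) that excludes 1. Only Id2 was past it, at 641.8 in cMyc flox and 972.3 in cMyc KO, a ratio of 1.51 (interval 1.37 to 1.68). It was no longer past under the 3 other scalings. Its ratio was then 1.37 (total count), 1.4 (coding TMM) and, just short of the mark, 1.5 (upper quartile). Among coding RefSeq features 4.31% were past it upwards and 3.18% downwards (7.50% in all). The median ratio of coding features with at least 20 reads was 1.08, and that of the 10 genes was 1.34.

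The other Id genes had ratios close to that of Id2. Id1 went from 2653 to 3785 and Id3 from 1071 to 1526, both a ratio of 1.43, with intervals of 1.36 to 1.5 and 1.32 to 1.54. The reads of Id2 over Id1 were accordingly 0.242 and 0.257 in the pair, and those of Id3 over Id1 were 0.404 and 0.403. Among the Nodal genes, Lefty2 went from 941.1 to 1306 (ratio 1.39, interval 1.28 to 1.51), Nodal from 625 to 816.4 (1.31, 1.18 to 1.45) and Lefty1 from 2115 to 2567 (1.21, 1.15 to 1.29). Tgfbr2 went from 74.8 to 103.3 on 71 and 114 reads, a ratio of 1.38 with an interval of 1.02 to 1.88. Smad7, at 456.3 and 483, and Bmp4, at 164.4 and 174.9, each had a ratio of 1.06 with an interval that holds 1. Skil alone was lower, from 2852 to 2578 (0.904, interval 0.857 to 0.953).

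The intervals of 6 genes lay above the coding median, those of 3 held it and that of Skil lay below it. The share of coding features with a lower ratio was 23.4% for Skil, 46.6% for Smad7, 47.5% for Bmp4 and 72.4% for Lefty1. It was 83% for Nodal, 88.6% for Tgfbr2, 89% for Lefty2, 90.9% for Id1 and Id3 and 93.6% for Id2. Most of the genes thus stood towards the upper end. All 10 lay between the 5th percentile (0.669) and the 95th (1.59) of coding features with at least 20 reads. Fibroblast markers were past the mark upwards in 4 of 7 cases, where 4.31% of coding RefSeq features were. Their sums were 4504 in cMyc flox and 7546 in cMyc KO, and their part was not tested. This count was made at the deposited scaling only, and Col3a1 in it rests on 10 and 32 reads.

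**Figure D5:**
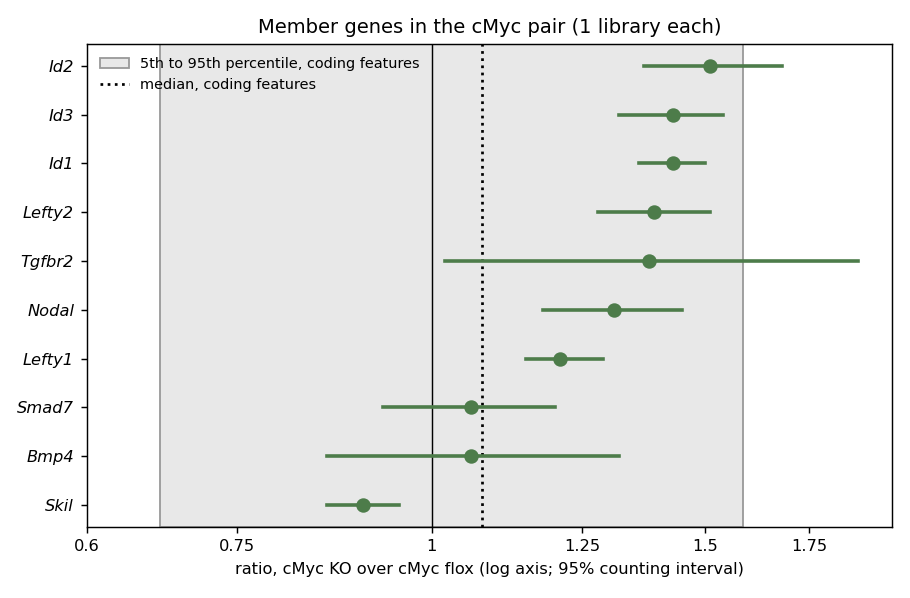
Ratio of the value in cMyc KO to that in cMyc flox (x axis, log scale) for each gene, with its 95% counting interval; the band spans the 5th to 95th percentile of coding features and the dotted line their median, 1.08. All 10 points lie within the band, from 0.904 for Skil to 1.51 for Id2, and the intervals of Id2 and Tgfbr2 reach beyond it.

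Of the 76 other pathway genes found for the pair, 9 were past the mark upwards and 1 downwards. Among coding RefSeq features 4.31% were past it upwards and 3.18% downwards. These counts were made at the deposited scaling only, and Nog (1.52) lies near the mark. The mesoderm gene T had 7.38 and 40.8 on 7 and 45 reads (ratio 5.53, interval 2.47 to 14.5), the other direction than in Dcr KO. The Bmp antagonist genes Chrd (2.12) and Nog (1.52), Tgfb1 (1.97) and Zfp423 (1.85), which encodes a Smad partner, were among those higher. Bmpr2, at 741.9 and 473, was lower (0.638). The cMyc and Dcr libraries were normalised apart and differ in cell line and read layout, so a level in one pair was not compared with a level in the other. Side by side, Id2 was higher in both comparisons (4.16-fold and 1.51-fold), Lefty1 and Tgfbr2 were called higher in Dcr KO and had ratios of 1.21 and 1.38, Nodal and Id3 were called lower in Dcr KO and had ratios of 1.31 and 1.43, and Bmp4 and Smad7 were called lower and had ratios of 1.06.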

How the data were processed

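The deposited values are a normalised signal, read counts divided by 1 factor per library by the authors, as the values themselves show: dividing each by its library's step gave integers in 100% of cases (tolerance 0.01), and reads were recovered this way. The submitters' processing notes list TopHat, Bowtie, DESeq and mm9, with no role stated; counting tool, gene models and strand setting: not given in the sources used here. Symbols of RefSeq identifiers came from GRCm38.p6 (20183 of 20559 in the Dcr table, 16839 of 17123 in the cMyc table), and 0 value columns went unmapped. Features reaching 1 in 2 or more libraries were fitted with limma 3.58.1 (R 4.3.3, trend) on log2(value + 1), which understates changes of low genes. The fit was also run on simulated counts, which does not check the calls made here. Alternatives were edgeR 4.0.16 and DESeq2 1.42.0 on recovered reads, other scalings, filters and pseudocounts, and leaving out each library. All 10 members are named, with up to 4 called genes per pathway list by size of change and up to 2 for the cMyc pair with at least 50 reads; Bmp1, Bmpr1a, Gsc, Ccn2, Id4 and Tcf3 were added after their values were seen. Reads carry no molecular identifiers, so counting intervals are a lower limit of the error. Some genes that this rule names are not reported here. Members and lists were chosen with earlier results of these data known.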

Additional observations from a re-analysis of the deposited data

How the results depend on the processing

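Over 14 alternatives, Lefty1, Bmp4, Tgfbr2 and Id2 kept direction and call. Of the members, Lefty2 changed sign without Dcr WT 2 (−0.13; 0.85 without Dcr WT 1), and Skil with total count scaling (−0.01) and without Dcr WT 1 (−0.26; 0.39 without Dcr WT 2); neither was called. Leaving out single libraries gave 3 members higher in each case and 1 to 3 lower, 3819 to 5863 features higher and 3857 to 4325 lower, and 12 to 17 pathway genes higher and 9 to 11 lower, against 4 members lower, 7171 and 6273 features and 22 and 14 pathway genes with all libraries. Without a wild-type library the lone one is assumed to vary like the others. With coding features alone, 3814 features were higher, since fewer were tested. In the cMyc pair, 0 members were past the mark upwards with total count, upper quartile or coding TMM scaling or at 2-fold. No paired analysis was possible because the groups share fewer than 2 replicate numbers. Depth limits Tgfbr2 in the cMyc pair most (interval 1.02 to 1.88).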
